A study of Mus musculus with 51 samples.

Results

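Of the 40468 autosomal regions in which H3K4me3 was called in mouse extra-embryonic ectoderm (ExE), 10003 regions (24.7%) had no gene assigned to them by the authors' annotation. These regions far from genes are described here against the other 30465, which are called gene-linked peaks. A gene-linked peak overlapped a gene in 26017 cases and lay upstream or downstream of one in 2456 and 1992 cases, at no more than 9991 bp. H3K4me3, the trimethylated lysine 4 of histone H3, was measured by ultra low-input native ChIP-seq, in which an antibody to the modified histone pulls down enzyme-digested chromatin and the attached DNA is sequenced. The embryos were of embryonic day (E) 6.5, and each library came from pooled epiblasts or pooled ExE, separated by hand. They were wild-type hybrids of C57BL6/Babr (B6) and CAST/Ei (CAST) in both directions, with the mother named first (B6/CAST and CAST/B6), and matDKO/CAST, in which CAST males were mated to B6/129 females that were floxed for Dnmt3a and Dnmt3b and carried the oocyte-specific Zp3-cre. The matDKO/CAST embryos were labelled as heterozygous for both deletions by maternal inheritance. Each cross and tissue had 2 libraries for H3K4me3, 2 for H3K27me3 and 2 for H3K36me3.

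H3K4me3 marks the start sites of most active genes and many CpG islands. Narrower and weaker H3K4me3 is found at active enhancers and at start sites that no annotation holds, including those in the long terminal repeats of endogenous retroviruses, of which the trophoblast lineage is known to use many. H3K27me3 is the mark laid by the Polycomb complex at repressed developmental genes, and H3K36me3 lies along transcribed gene bodies. ExE is the trophoblast tissue that gives rise to much of the placenta, and the epiblast gives rise to the embryo. Dnmt3a and Dnmt3b are the enzymes that set DNA methylation. A region with more H3K4me3 on the allele of 1 parent in both directions of cross has a parental (imprinted) bias, and one that follows B6 or CAST in both directions has a strain bias.

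To show what such regions look like, 200 bp are printed from 7 members on which the results below turn. Each is the stretch with the most CpG sites in its member, read on the plus strand of RefSeq GRCm38, with every CpG in capitals. The first 4 belong to members with a parental bias and the last 3 to members that differed between the tissues.

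chr15:97164662-97164861, paternal bias in all crosses, Gm32885: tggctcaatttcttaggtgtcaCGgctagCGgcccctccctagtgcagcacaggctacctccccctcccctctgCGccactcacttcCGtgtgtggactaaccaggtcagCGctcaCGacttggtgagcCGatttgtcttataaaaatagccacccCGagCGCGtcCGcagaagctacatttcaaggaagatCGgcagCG

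chr2:169008886-169009085, paternal bias that differed in matDKO, near Zfp64: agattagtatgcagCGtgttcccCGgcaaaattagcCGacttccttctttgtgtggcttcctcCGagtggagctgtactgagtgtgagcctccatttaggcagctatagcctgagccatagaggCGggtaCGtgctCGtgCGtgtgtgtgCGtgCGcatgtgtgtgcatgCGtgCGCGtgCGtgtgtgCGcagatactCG

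chr9:118341662-118341861, paternal bias that differed in matDKO, near Eomes: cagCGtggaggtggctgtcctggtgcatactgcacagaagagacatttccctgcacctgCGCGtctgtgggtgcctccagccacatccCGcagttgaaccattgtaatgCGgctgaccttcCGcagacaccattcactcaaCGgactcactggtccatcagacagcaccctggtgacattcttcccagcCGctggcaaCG

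chr7:143978067-143978266, maternal bias in the wild type, near Shank2: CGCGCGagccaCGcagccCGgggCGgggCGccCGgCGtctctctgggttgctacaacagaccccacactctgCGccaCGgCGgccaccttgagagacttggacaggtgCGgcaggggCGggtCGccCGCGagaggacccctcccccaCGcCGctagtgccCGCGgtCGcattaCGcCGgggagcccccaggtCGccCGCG

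chr13:66563701-66563900, higher in ExE, near Gm49531: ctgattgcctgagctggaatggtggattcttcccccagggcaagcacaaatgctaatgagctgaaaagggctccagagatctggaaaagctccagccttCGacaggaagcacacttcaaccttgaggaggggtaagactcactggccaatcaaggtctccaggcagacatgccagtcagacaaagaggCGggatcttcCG

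chr13:66519462-66519661, higher in ExE, Gm26806: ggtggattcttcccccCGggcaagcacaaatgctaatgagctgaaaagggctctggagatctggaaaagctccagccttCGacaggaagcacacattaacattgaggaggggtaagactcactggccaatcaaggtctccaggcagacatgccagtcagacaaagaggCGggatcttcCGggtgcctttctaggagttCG

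chr5:120410115-120410314, lower in ExE, near Lhx5: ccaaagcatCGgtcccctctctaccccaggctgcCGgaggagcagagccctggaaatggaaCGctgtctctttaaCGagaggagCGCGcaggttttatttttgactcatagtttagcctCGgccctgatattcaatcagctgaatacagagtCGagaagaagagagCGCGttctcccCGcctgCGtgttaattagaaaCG

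These stretches held between 3 and 27 CpG sites, whereas the median for the best 200 bp stretch over all 10003 members was 8, with 46 as the highest. The stretch near Shank2 was the richest of the 7 and the one near Gm49531 the poorest. The pair of stretches from chromosome 13 came from separate members that shared an identical run of 79 bp, and 97 of the 181 overlapping pieces of 20 bp in the one were also in the other. Whether reads of one such near copy were placed at the other was not tested.

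The members were shorter than gene-linked peaks. Their median length was 2000 bp (quartiles 1500 and 3000 bp) against 3000 bp (2000 and 5500 bp), and 27.8% of members against 13.8% of gene-linked peaks were no longer than 1500 bp. Only 5.92% of members were longer than 6000 bp, compared with 22.2% of gene-linked peaks. The longest member measured 34000 bp and the longest gene-linked peak 103000 bp, and the sets covered 27.1 and 149 Mb. Of the members, 37.4% lay in the ExE peak lists of both wild-type crosses, against 63.2% of gene-linked peaks. Those members had a median length of 3000 bp, and the gene-linked peaks in both lists one of 4500 bp. Almost all members (99.8%) were in the B6/CAST list, and 37.6% were in the CAST/B6 list.

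Members were far from protein-coding genes, and less so from genes of any kind. The median distance to the nearest start site of a protein-coding gene in the GENCODE vM21 annotation was 50444 bp, against 1464 bp for gene-linked peaks. To a start site of any vM21 gene the median was 17323 bp, and to the body of one 13168 bp. The distance to a protein-coding start site exceeded 50000 bp for 50.3% of members, 100000 bp for 29.7% and 500000 bp for 3.79%. The annotation behind the gene assignment is not given in the sources used here. A total of 2302 members overlapped a vM21 gene, 520 of them a protein-coding one, and 993 held a vM21 start site. In all, 6030 members had no vM21 gene of any kind within 10000 bp. Members were present on all 19 autosomes.

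In sequence, the members lay between the surrounding DNA and gene-linked peaks. The observed over expected ratio of CpG was 0.263 (median) in members and 0.309 in gene-linked peaks. In windows of 1000 bp placed 20000 bp beside a member and outside any peak the median was 0.167 (n = 8586), against 0.287 in the central 1000 bp of the members. GC content was 46.5% in members and 47.8% in gene-linked peaks. Repeats that the reference masks covered a median of 22.8% of a member and 19.2% of a gene-linked peak, and at least 50% of the sequence was repeat in 15.4% of members against 3.74% of gene-linked peaks.

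H3K4me3 at the members was low and centred on the peak. In the window at the centre the mean over all members was 2.40 and 1.93 RPKM (reads normalised to region length and library size) in the B6/CAST ExE libraries, 1.26 and 1.53 RPKM in CAST/B6 ExE and 2.07 and 1.86 RPKM in matDKO/CAST ExE. The inputs, which are chromatin sequenced without an antibody, gave between 0.443 and 0.504 RPKM at the same place. Gene-linked peaks reached 6.49 to 8.18 RPKM in the 6 ExE libraries. The central mean hides the weakness of most members: over the whole length of a member the median was 1.06 and 0.863 RPKM in B6/CAST ExE and 0.531 and 0.547 RPKM in CAST/B6 ExE. At least 2-fold the input was found at 59.9 and 45.6% of members in the B6/CAST ExE libraries and at 23.2 and 27.9% in CAST/B6 ExE. Thus a large share of the members stood little above input in any single library, and more of them in CAST/B6 than in B6/CAST.

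**Figure D1:**
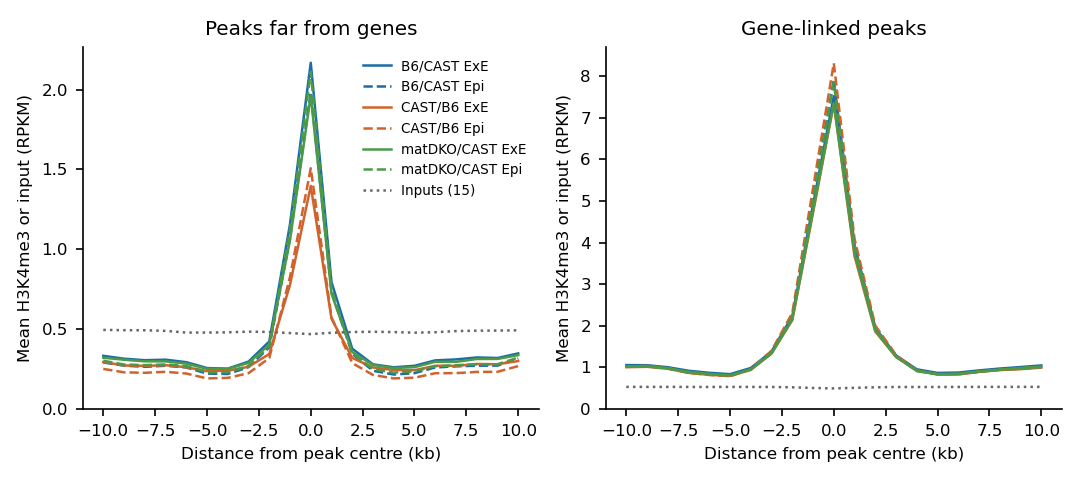
Mean H3K4me3 and input in RPKM (vertical axis) by distance from the peak centre in kb (horizontal axis), for the 10003 members and the 30465 gene-linked peaks, with a line for the mean of the libraries of each cross and tissue and a dotted line for the mean of the 15 inputs. At members the lines peak at the centre, where the single ExE libraries had 1.26 to 2.40 RPKM, above the inputs and below the 6.49 to 8.18 RPKM of gene-linked peaks.

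Longer members had a higher mean RPKM than shorter ones, but the step was small. The mean is taken over whole 1000 bp windows, so it includes flanking sequence, most of all in short peaks. The part of this in the step was not tested. The median wild-type ExE level rose from 0.618 RPKM in members of up to 1500 bp to 1.09 RPKM in those over 6000 bp, whereas in gene-linked peaks it went from 0.664 to 5.33 RPKM over the same length classes. The 5 longest members lay at or near Sipa1l2 (34000 bp), Zfp36l2 (26500 bp), within the lincRNA Pvt1 downstream of Myc (25500 bp), near Rassf3 (25000 bp) and at Tiam1 (22000 bp). Myc encodes a transcription factor that drives growth, Zfp36l2 a protein that binds and destabilises mRNAs, and Tiam1 an exchange factor for the GTPase Rac. The Pvt1 member had 1.37 and 1.15 RPKM in B6/CAST ExE and 0.774 and 0.855 RPKM in CAST/B6 ExE. The Tiam1 member had 4.70 and 3.81 RPKM in B6/CAST ExE and 2.53 and 4.05 RPKM in CAST/B6 ExE. Their epiblast values were in the same range, at 0.566 to 1.18 RPKM and 3.40 to 4.82 RPKM.

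The members with the highest ExE signal were mostly at start sites of genes in the vM21 annotation. They were at Clasp2, near Wnt11, at Ktn1, at Klf12 and at Plekha7, and 4 of the 5 held a vM21 start site of the protein-coding gene named. Clasp2 encodes a microtubule-binding protein, Wnt11 a secreted Wnt ligand and Klf12 a zinc-finger transcription factor. The Clasp2 member had 17.0, 13.9, 18.7 and 23.1 RPKM in the 4 wild-type ExE libraries and 20.5, 14.2, 25.6 and 19.8 RPKM in the wild-type epiblast. The Wnt11 member, 17112 bp from the start site, had 18.8, 15.9, 16.6 and 20.8 RPKM in ExE and 19.0, 14.2, 25 and 19.4 RPKM in the epiblast. The tissues overlapped for both.

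Total signal was compared between the tissues on log2(RPKM + 0.5) with limma across all 40468 peaks, calling an adjusted p below 0.05. The regions were called in the wild-type ExE libraries that this comparison uses, so a higher value in ExE is partly fixed by how they were chosen. Of the members, 4312 (43.1%) were higher in ExE and 1291 (12.9%) were lower, where the share over all peaks was 32.9% and 14.4% and that of gene-linked peaks was 29.6% and 14.9%. The median log2 difference was 0.38 in members and 0.12 in gene-linked peaks. Bulk signal of this kind cannot tell apart fewer cells with a mark from less mark per cell. With TMM scaling, which sets the bulk of peaks equal between libraries, 33.6% of members were higher and 15.9% lower, so that 67.9% of the calls were higher in place of 77.0%. In gene-linked peaks the share went from 66.5 to 49.0%. Among peaks with a mean of at least 1 RPKM over the 12 libraries the direction turned. There 18.9% of members were higher and 37.0% lower, against 10.8% and 25.7% of all such peaks. With the CAST/B6 libraries alone, 10.6% of members were higher and 7.70% lower, and with the B6/CAST libraries alone 33.5% and 8.73%. Without the first B6/CAST ExE library, 27.8% were higher.

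The matDKO/CAST libraries had no part in the peak calling, and there the excess of higher members over lower ones was small. In them 1406 members (14.1%) were higher in ExE and 1323 (13.2%) lower, against 12.1% and 12.6% of all peaks, and 11.4% and 12.4% of gene-linked peaks. The higher share fell to 6.39% without matDKO/CAST ExE replicate 2 and to 8.90% and 9.22% without epiblast replicate 1 and replicate 2. With TMM scaling 42.6% of the calls at members were higher, in place of 51.5%. Members lower in ExE in the wild type were called again more often than the higher ones: 1037 of 1291 (80.3%) were also lower in matDKO/CAST and 0 were called the opposite way, whereas 1257 of 4312 (29.2%) were also higher and 5 were called the opposite way. In gene-linked peaks the order was the same, with 71.1% of the lower and 34.6% of the higher ones called again. The sign in matDKO/CAST matched for 99.5% and 92.4% of the members. The tissue difference itself was compared between matDKO/CAST and B6/CAST and passed at 1 member, which was the only such call among all peaks (0.00247%). No member passed with TMM scaling, with a pseudocount of 0.1, or without B6/CAST epiblast replicate 1, either B6/CAST ExE library, matDKO/CAST epiblast replicate 2 or matDKO/CAST ExE replicate 3, and 28 passed without matDKO/CAST ExE replicate 2.

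The direction followed the level of the mark. Members with a mean over the 12 libraries under 0.5 RPKM were higher in ExE in 62.5% of cases and lower in 0.0690%, those of 2 to 4 RPKM were higher in 12% and lower in 51.1%, and those of at least 4 RPKM were higher in 4.95% and lower in 39.1%. Gene-linked peaks of 2 to 4 RPKM were higher in 12.1% and lower in 40.4%, and those of at least 4 RPKM in 2.45% and 19.3%. In matDKO/CAST, members of at least 4 RPKM were higher in 2.15% and lower in 26.9%. Hence the strongest members were lower in ExE far more often than they were higher, in both genotypes. The mean level contains the tissue values that are compared, so these shares are a description.

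**Figure D2:**
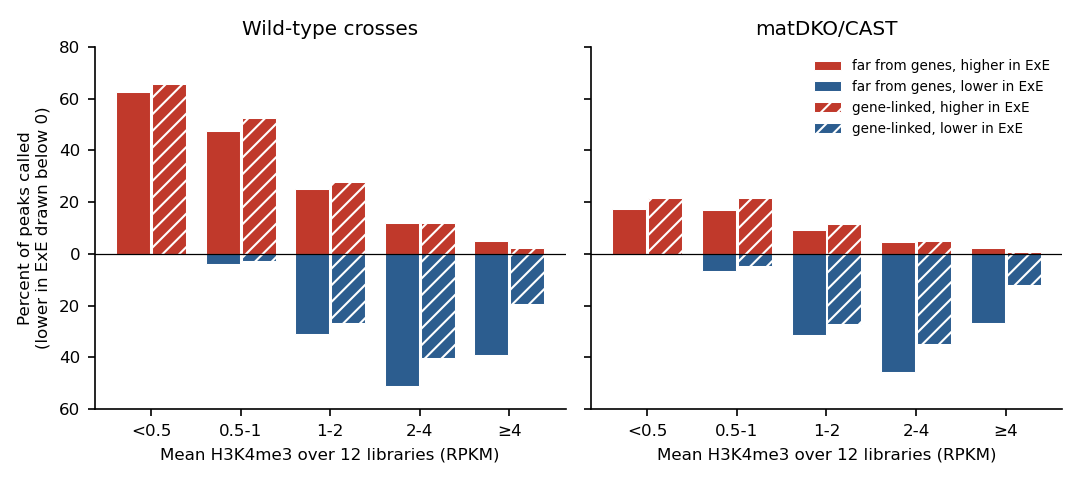
Percent of peaks called higher (above 0) or lower (below 0) in ExE than in the epiblast, by mean H3K4me3 over the 12 libraries in RPKM, for members and gene-linked peaks in the wild type and in matDKO/CAST. In the wild type the share of members called lower grows from 0.0690% under 0.5 RPKM to 51.1% between 2 and 4 RPKM.

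A member's place in the epiblast peak lists separated both directions. Of the members, 51.4% overlapped an epiblast H3K4me3 peak, against 70.5% of gene-linked peaks. Those in no epiblast list were higher in ExE in 68.4% of cases and lower in 0, and those in a list were higher in 19.2% and lower in 25.1%. Gene-linked peaks split alike, with 71.7% higher and 0 lower in no list and 11.9% and 21.1% in one. The lists were called on these same libraries, so this is not an independent measure. H3K27me3 is independent of the rule: 39.5% of members overlapped an ExE H3K27me3 peak (44.7% of gene-linked peaks), and those were higher in H3K4me3 in 28.4% of cases and lower in 24.1%, compared with 52.7% and 5.60% of the members in no such list. For gene-linked peaks these shares were 17.0% and 26.9%, and 39.7% and 5.10%.

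The 1257 members higher in ExE and the 1037 lower in ExE in both genotypes also differed in composition. The higher ones had a median CpG ratio of 0.231 and a repeat share of 24.6%, and the lower ones had 0.302 and 17.3%. The median H3K4me3 level was 0.816 RPKM in wild-type ExE and 0.247 RPKM in the epiblast for the higher members, and 0.929 and 2.45 RPKM for the lower ones. Of the lower members, 75.2% overlapped an ExE H3K27me3 peak and 43.9% an epiblast one, against 25.5% and 5.65% of the higher members.

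Short sequence motifs were counted in the central 1000 bp on both strands, with N for any base. A match is a description of the letters and not a binding site. The AP-1 letters TGANTCA were in 33.3% of the members higher in both genotypes, 21.7% of the lower ones and 25.7% of all peaks. The GATA letters AGATAAG were in 16.9, 10.2 and 13.2%, the T-box letters AGGTGTGA in 7.96, 4.82 and 5.01%, the TEAD letters ACATTCCA in 6.76, 3.66 and 4.84% and the CDX letters CAATAAA in 23.7, 14.5 and 16.2% of the same sets. The octamer ATGCAAAT, which POU factors such as Oct4 read, ran the other way, with 4.69% of the higher members, 10.3% of the lower ones and 5.37% of all peaks. The TFAP2 letters GCCNNNGGC were in 23.0% of the higher and 29.4% of the lower members, both under the 30.7% of all peaks, and the CTCF motif in 0.796% and 3.09% against 2.20%. The ESRRB letters TCAAGGTCA (3.18, 2.89 and 2.60%) and the ETS letters CCNGGAAGT (5.09, 3.95 and 5.77%) differed less. In the windows beside members the CDX letters were in 24.3% and the octamer in 7.73%.

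The members with the greatest tissue difference in both genotypes were led by a cluster on chromosome 13. The member at chr13:66562501-66565500, 538 bp from the start of Gm49531, had 6.43, 5.52, 5.08 and 5.39 RPKM in the 4 wild-type ExE libraries and 0.951, 0.631, 0.0380 and 0.448 RPKM in the wild-type epiblast. In matDKO/CAST it had 6.19 and 9.23 RPKM in ExE and 0.915 and 0.437 RPKM in the epiblast. Every ExE library was above every epiblast library, with log2 differences of 2.67 ± 0.19 (SE; adjusted p = 8.6e-14) in the wild type and 2.81 ± 0.26 in matDKO/CAST.

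The neighbouring member at chr13:66519001-66521000 overlaps the lincRNA Gm26806 and carries the printed sequence that is so like the first. It had 4.05, 3.04, 3.69 and 4.12 RPKM in wild-type ExE and 0.755, 0.136, 0.0380 and 0.112 RPKM in the epiblast, a log2 difference of 2.55 ± 0.20 (adjusted p = 6.8e-13). A further one at chr13:66697001-66699000, over the pseudogene Zfp640 and the lincRNA Gm40988, differed by 1.74 ± 0.21. The other leading members were at chr1:191801501-191805000, 16444 bp from Nek2, a kinase of the centrosome (2.20 ± 0.19), at chr7:43266501-43269000 near the zinc-finger gene Zfp715 (1.81 ± 0.20), and at chr15:97162501-97168500 over Gm32885 (1.81 ± 0.18), which also carried a parental bias. In matDKO/CAST these 4 differed by 1.63 ± 0.30, 1.93 ± 0.27, 1.55 ± 0.29 and 1.00 ± 0.26 in the same order.

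Those lower in ExE were led by 2 members on chromosome 5, each near a homeobox gene. The member at chr5:120409001-120411000, 20699 bp from Lhx5, a homeobox gene of the forebrain, had 1.12, 1.62, 0.719 and 0.968 RPKM in wild-type ExE and 8.22, 11.4, 5.47 and 7.06 RPKM in the epiblast. It fell by 2.39 ± 0.19 on the log2 scale (adjusted p = 7.5e-13), and by 2.40 ± 0.26 in matDKO/CAST. The member at chr5:41744001-41746000, 18501 bp from the homeobox gene Nkx3-2, had 0.746, 1.24, 0.531 and 0.379 RPKM in ExE and 5.09, 5.90, 3.8 and 7.28 RPKM in the epiblast, with log2 differences of -2.31 ± 0.18 in the wild type and -2.39 ± 0.25 in matDKO/CAST. In neither did the tissues overlap. The other 4 were at chr3:64949001-64950000, chr15:20448001-20450000 in the cadherin gene Cdh12, chr2:95232501-95233000 and chr3:103683001-103684000, with wild-type log2 differences of -2.25 ± 0.17, -2.12 ± 0.18, -2.07 ± 0.18 and -2.07 ± 0.17. The chromosome 2 member was 794365 bp from the nearest protein-coding start site, that of Api5. All 6 overlapped an ExE H3K27me3 peak.

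**Figure D3:**
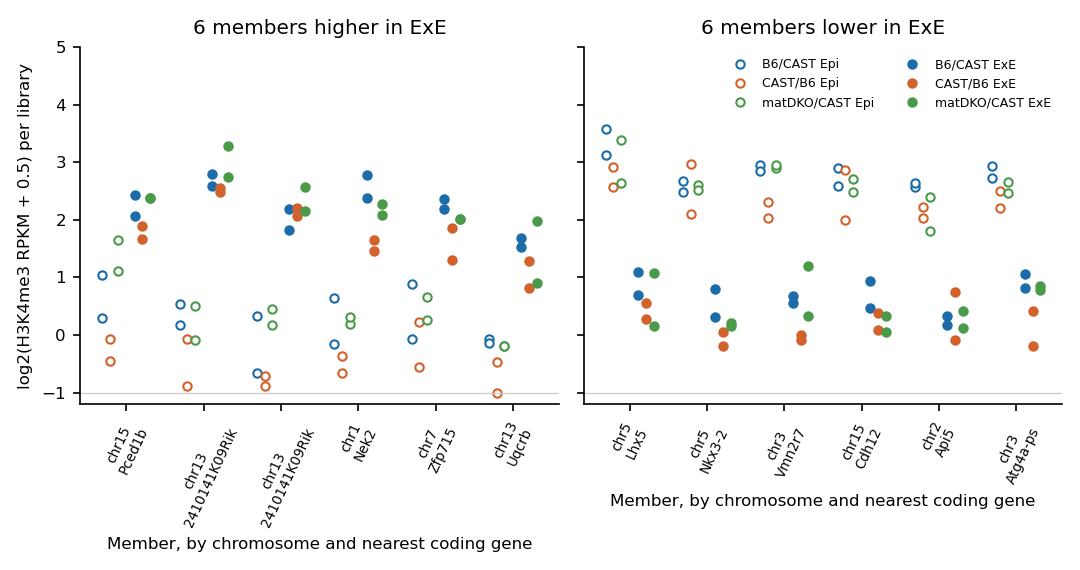
H3K4me3 in each library as log2(RPKM + 0.5) (vertical axis) for the 12 members with the greatest tissue difference called in both genotypes (horizontal axis, by chromosome and nearest coding gene), with ExE libraries as filled and epiblast libraries as open points, coloured by cross. At the Gm49531 member on chromosome 13 the wild-type ExE libraries lie at 5.08 to 6.43 RPKM and the epiblast ones at or under 0.951 RPKM.

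Members near genes known for their roles in either tissue were counted within 100000 bp of their start sites. Near the 30 genes of an ExE and trophoblast list, 26 genes had at least 1 member and 100 members were found, of which 54 were higher in ExE and 9 lower in the wild type, and 27 and 13 in matDKO/CAST. Over all members the shares were 43.1% and 12.9%, and 14.1% and 13.2% in matDKO/CAST, as given above, against 32.9% and 14.4% and 12.1% and 12.6% of all peaks. The median log2 difference of the 100 was 0.51, beside 0.38 for all members. The member nearest to Tfap2c, a transcription factor of the trophoblast lineage, had a mean of 1.14 RPKM in wild-type ExE and 0.263 RPKM in the epiblast. The one nearest to Hand1, which trophoblast giant cells need, had 0.791 and 0.209 RPKM, and the one nearest to Gata2 went the other way with 0.929 and 1.91 RPKM. These 3 were chosen after their values were seen.

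Of 20 epiblast genes, 12 had a total of 20 members within that distance, with 3 higher and 6 lower in ExE in the wild type and 1 and 6 in matDKO/CAST, or 15% and 30% in the wild type, to be read against the same shares of all members and peaks. At chr5:98292001-98294500, the member nearest to Fgf5, a growth factor gene of the primed epiblast, had 4.09, 4.07, 1.90 and 2.86 RPKM in wild-type ExE and 10.3, 10.4, 10.2 and 6.65 RPKM in the epiblast. All ExE values were lower, by -1.43 ± 0.16 on the log2 scale (adjusted p = 3.9e-09) and by -1.46 ± 0.23 in matDKO/CAST. The member within Otx2os1 nearest to Otx2, a homeobox gene of the epiblast, had 1.28, 1.45, 0.594 and 0.715 RPKM in ExE and 3.19, 4.20, 2.01 and 2.35 RPKM in the epiblast, a log2 difference of -1.19 ± 0.17 (adjusted p = 6.2e-07). The members nearest to Lin28a, Pou5f1, Zic2 and Sox11, and that nearest to Ets2 of the ExE list, were not called, with wild-type values from 0.278 to 2.21 RPKM in both tissues.

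H3K4me3 at the start site of Elf5, a defining ExE gene, averaged 22.2 RPKM in wild-type ExE and 2.15 RPKM in the epiblast, and that of Pou5f1 averaged 11.7 and 63.5 RPKM. Every ExE library was above every epiblast one for 6 of 30 ExE genes and below every one for 2 of them, and their summed signal overlapped, with 733 to 950 RPKM in wild-type ExE and 634 to 884 RPKM in the epiblast. For 10 of 20 epiblast genes every ExE library was below. Of 14 visceral endoderm genes 5 were above and 1 below, and their summed signal ran from 204 to 301 RPKM in ExE and from 165 to 248 RPKM in the epiblast. Over 9 genes of maternal decidua and blood the sums were 21.4 to 40.9 RPKM in ExE and 37.0 to 49.6 RPKM in the epiblast, and Prl8a2, Ptprc, Tyrobp, Hba-a1 and Hbb-bt were under 1 RPKM in both. The part of other cell types in the tissue differences at members was not tested. The 12 H3K4me3 libraries had from 4.01 M to 17.9 M aligned reads, and replicates correlated over the members with r from 0.827 to 0.939.

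The wild-type crosses differed in total signal, at members about as often as elsewhere when all peaks were tested. In ExE 852 members (8.52%) were higher in B6/CAST than in CAST/B6 and 2 were lower, where 8.46% of all peaks and 8.44% of gene-linked ones were higher in B6/CAST. The share at members was 0.0300% with TMM scaling, 0 without B6/CAST ExE replicate 1 and 0.0600% without CAST/B6 ExE replicate 1. The median log2 difference was 0.49 at members and 0.38 at gene-linked peaks. With a mean of at least 1 RPKM over the 12 libraries, 27.1% of members and 17.2% of gene-linked peaks were higher in B6/CAST. Cross and library enrichment move together and cannot be told apart.

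H3K27me3 and H3K36me3 were compared over the same regions. H3K27me3 was higher in ExE at 776 members (7.76%) and lower at 595 (5.95%), against 8.14% and 7.86% of all peaks. Leaving out 1 library took these shares of members as low as 3.24% (without B6/CAST ExE replicate 1) and 2.71% (without CAST/B6 ExE replicate 2). Of the 1037 members whose H3K4me3 was lower in ExE in both genotypes, 17.9% had more H3K27me3 in ExE and 8.00% less, and of the 1257 higher ones 3.90% had more and 5.65% less. At the Fgf5 member mean H3K27me3 was 0.927 RPKM in wild-type ExE and 0.318 RPKM in the epiblast (adjusted p = 0.0013). H3K36me3 differed at 28 members, or 0.280%, against 1.26% of all peaks. Of these, 27 were lower in ExE, whereas 422 of 481 calls at gene-linked peaks were higher. The share of 0.280% was at most 0.0600% without any 1 of the 8 wild-type libraries and rose to as much as 0.810% without 1 of the matDKO/CAST ones. Replicates correlated over the members with r from 0.235 to 0.569 for H3K36me3 and from 0.735 to 0.941 for H3K27me3.

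To ask whether the alleles differ, the reads that cover a B6 or CAST variant were used. A peak was informative when either allele had 20 reads or more in any wild-type library, which held for 3764 members (37.6%) and 19447 gene-linked peaks (63.8%). The informative members had a median of 144 wild-type allelic reads, against 513 in gene-linked peaks. The libraries held 2.70 M to 6.82 M allelic reads in peaks, of which members had 4.55 to 6.91%. Maternal and paternal counts were compared by the quasi-likelihood test of edgeR in each cross, and a call needed an adjusted p below 0.05 in both.

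A strain bias was found at 225 informative members (5.98%), 126 with more H3K4me3 on the B6 and 99 on the CAST allele, against 3.96% of all informative peaks and 3.56% of gene-linked ones. The share was above that of gene-linked peaks in each class of allelic depth. It was 5.23% against 3.75% under 100 reads, 9.04% against 3.90% from 400 to 800 reads, and 5.82% against 2.82% at 800 reads or more. In a joint fit of both crosses, 960 members (25.5%) had an effect of strain, where 19.0% of all peaks and 17.7% of gene-linked peaks did. Fewer than 225 were called when any 1 wild-type library was left out. Those runs used 1 fit over the 3 crosses in place of a fit per cross. The loss of a library and the change of fit cannot be told apart in them. Members with a strain bias were at least 50% repeat in 9.78% of cases, against 3.70% of the other informative members, and in gene-linked peaks the shares were 3.75% and 0.901%.

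The members with the strongest strain bias had few reads or none from 1 allele. At chr19:8251001-8254000, over a lincRNA near the transporter gene Slc22a29, the B6/CAST libraries had 95 and 48 maternal reads and 0 paternal ones, and the CAST/B6 libraries had 76 and 63 paternal reads and 0 maternal ones. At chr12:17991501-17994500, over a pair of pseudogenes, the B6 allele had 48, 37, 47 and 39 reads and the CAST allele 0 in each library, and at chr7:43112501-43115500 in the zinc-finger gene Zfp936 the B6 allele had 33, 23, 14 and 15. The CAST-biased members were at chr1:181250501-181252500, with 34, 28, 31 and 36 CAST reads against 1, 2, 1 and 1 from B6, at chr5:26512501-26515000, with 31, 24, 17 and 14 against 1 in each library, and at chr3:75860501-75862500 near Golim4, with 27, 12, 7 and 6 against 6, 2, 0 and 0. A count of 0 over an allele that cannot be aligned to the reference looks the same as an allele without the mark, and was not tested. In matDKO/CAST the same strain was higher at 121 of the 126 B6-biased and 98 of the 99 CAST-biased members, with a median log2 ratio of 1.86 (2.05 in the wild type) and 1.97 (2.15).

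A parental bias was found at 13 members (0.345%), against 0.319% of all informative peaks and 0.314% of gene-linked peaks. The paternal allele was higher at 10 and the maternal one at 3. The joint fit called 38 members for parent (1.01%), against 0.711% of all peaks. When any 1 wild-type library was left out, fewer than 13 were called. Those runs also used 1 fit over the 3 crosses in place of a fit per cross, so the change of fit is not separated from the loss of a library. In matDKO/CAST on its own 136 members (3.61%) had an allelic bias, where 2.76% of all peaks did, and 6 of the 13 were retained, meaning that they passed there with the same parent higher. Of the 74 peaks of any kind with a parental bias 19 were retained, and of the 61 gene-linked ones 13. Each run without 1 library retained fewer than 6, again in the fit over the 3 crosses. Both alleles are counted in 1 library, and with the library as a block 614 members had a bias in matDKO/CAST in place of 136 and the count retained was 8, while the joint fit called 59 for parent in place of 38. In that cross the parents are also of different strains. At 8 members (0.213%) the bias of matDKO/CAST departed from that of B6/CAST when the difference itself was tested, against 0.892% of all peaks, and 2 of these were among the 13. With the library block 32 members passed this test.

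All 6 retained members had a paternal bias, and they fell into a pair of clusters. The first lies on chromosome 15 between the transporter gene Slc38a4, known to be expressed from the paternal allele in placenta, and Pced1b. The member at chr15:97162501-97168500, over Gm32885, had 37 maternal and 342 paternal reads in the first B6/CAST library and 24 and 209 in the second, 16 and 165 and 13 and 144 in CAST/B6, and 29 and 236 and 11 and 161 in matDKO/CAST. The paternal share was 90.0% ± 0.38 (SD, n = 2) in B6/CAST, 91.4% ± 0.40 in the reciprocal cross and 91.3% ± 3.22 in matDKO/CAST. Both CAST/B6 libraries were above both B6/CAST ones, and the matDKO/CAST libraries lay on either side of all 4. Mean H3K4me3 was also higher in ExE, as given above.

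The other 3 of this cluster were at chr15:97125001-97128000, with paternal shares of 95.0% in B6/CAST, 76.2% in the reciprocal cross and 90.2% in matDKO/CAST, at chr15:97129501-97133000, with 97.7, 91.7 and 95.5%, and at chr15:97135001-97145500, with 77.6, 77.0 and 71.6%. The first of these also had an effect of strain, with the CAST allele higher (log2 B6 over CAST -1.32 ± 0.24 in the joint fit, adjusted p = 4.2e-05), and CAST is the paternal strain in matDKO/CAST. H3K36me3 over chr15:97153501-97167500 had a paternal share of 78.9% in B6/CAST, 64.4% in the reciprocal cross and 73.7% in matDKO/CAST. H3K27me3 over chr15:97133001-97156500 was near even, with 50.2, 50.4 and 44.6%.

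The second cluster lies on chromosome 3 beside Jade1, which encodes a subunit of a histone acetyltransferase complex. At chr3:41526501-41535500, over the lincRNA 2400006E01Rik, the B6/CAST libraries had 65 maternal and 142 paternal reads and 56 and 115, the CAST/B6 libraries had 9 and 102 and 8 and 99, and the matDKO/CAST libraries had 38 and 93 and 22 and 66. The paternal share was 67.9% ± 0.95, 92.2% ± 0.45 and 73.0% ± 2.83 (SD, n = 2 each). Here B6 was also the higher strain, with a log2 effect of 1.17 ± 0.18 in the joint fit (adjusted p = 2.3e-06). The member at chr3:41490001-41498500, over Platr4, had paternal shares of 61.8, 77.1 and 69.5%. H3K36me3 had paternal shares of 56.1, 64.0 and 56.6% over chr3:41500001-41528000, and of 54.5, 64.8 and 47.6% over chr3:41477001-41492500.

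The paternal bias differed in matDKO/CAST at a pair of imprinted members. At chr2:169004501-169010000, 48914 bp from the zinc-finger gene Zfp64 and outside any vM21 gene, the B6/CAST libraries had 124 maternal and 522 paternal reads and 71 and 291, the CAST/B6 libraries had 12 and 106 and 1 and 104, and the matDKO/CAST libraries had 273 and 330 and 239 and 302. The paternal share was 80.6% ± 0.30, 94.4% ± 6.52 and 55.3% ± 0.78 (SD, n = 2 each), and the interaction was -1.68 ± 0.25 on the log2 scale (adjusted p = 0.00065). Total signal there was 11.0 and 14.6 RPKM in matDKO/CAST ExE, 8.53 and 5.72 RPKM in B6/CAST and 1.60 and 2.01 RPKM in CAST/B6, where the first difference did not pass (log2 0.81 ± 0.24, adjusted p = 0.25). An effect of strain was also found, with B6 higher (log2 0.91 ± 0.21 in the joint fit, adjusted p = 0.00086). H3K36me3 over chr2:169003001-169038500 had paternal shares of 68.0, 71.4 and 54.1%.

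At chr9:118340501-118342500, 135712 bp from Eomes, a T-box gene that ExE needs, the paternal share was 80.0% ± 7.07 in B6/CAST, 85.1% ± 0.06 in the reciprocal cross and 38.5% ± 7.29 in matDKO/CAST. The reads were 17 maternal and 51 paternal and 6 and 34 in B6/CAST, 7 and 40 and 4 and 23 in CAST/B6, and 44 and 22 and 31 and 24 in matDKO/CAST, with an interaction of -2.51 ± 0.50 (adjusted p = 0.012). According to the methods, a further alignment step adds reads to the maternal allele alone in matDKO/CAST, and the part of that step in these shifts was not tested.

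The remaining paternally biased members were at chr8:80915001-80920000 near Gab1, an adaptor of receptor signalling that placenta needs, and at chr2:10310501-10313500, 57010 bp from Sfmbt2, a Polycomb gene of trophoblast. The Gab1 member had paternal shares of 90.0, 88.2 and 70.0% and the Sfmbt2 member of 66.4, 76.7 and 68.1%, with the crosses in the same order as before. Neither passed in matDKO/CAST, with 40 and 90 allelic reads there, and neither interaction passed (adjusted p = 0.72 and 1.00). Over the H3K27me3 region that holds the Sfmbt2 member the paternal share was 28.4, 28.5 and 26.3%, so that this mark was higher on the maternal allele. Over the region that holds the Gab1 member it was 43.1, 64.6 and 40.4%, on either side of equal alleles. The higher allele there was the B6 one in both wild-type crosses, and the maternal one in matDKO/CAST.

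All 3 maternally biased members lay on distal chromosome 7, in the imprinted domain that holds Cdkn1c, a cell-cycle inhibitor expressed from the maternal allele. At chr7:143444001-143447000, 12311 bp from Cdkn1c, the reads were 57 maternal and 9 paternal and 41 and 10 in B6/CAST, 27 and 0 and 15 and 3 in CAST/B6, and 3 and 3 and 2 and 6 in matDKO/CAST. The paternal share was 16.6% ± 4.22, 8.33% ± 11.8 and 62.5% ± 17.7. Its total signal also fell, from 3.75 and 3.75 RPKM in B6/CAST ExE to 0.582 and 0.949 RPKM in matDKO/CAST ExE (log2 -1.76 ± 0.23, adjusted p = 2.3e-06), while CAST/B6 ExE lay between them at 1.35 and 1.51 RPKM. In the epiblast it was 5.22 and 5.46 RPKM in B6/CAST and 4.49 and 4.08 RPKM in matDKO/CAST. With 14 allelic reads left in matDKO/CAST the interaction did not pass (adjusted p = 0.17).

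At chr7:143977001-143980500, 21428 bp from Shank2, a scaffold gene of synapses, the paternal share was 33.9, 29.4 and 51.2%, and the interaction did not pass either (adjusted p = 0.27). At chr7:142869001-142871000 near Th, the tyrosine hydroxylase gene, it was 16.3, 22 and 13.4%, from 15 reads in matDKO/CAST. This last member fell outside the 12 to be named and was added after its values were seen. The H3K27me3 regions around the 3 members had paternal shares of 82.6, 72.9 and 77.7% in B6/CAST and 85.7, 74.8 and 77.4% in CAST/B6, at Cdkn1c, Shank2 and Th in that order, and 48.7, 46.4 and 50.3% in matDKO/CAST. These regions span many peaks and are not the members alone.

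**Figure D4:**
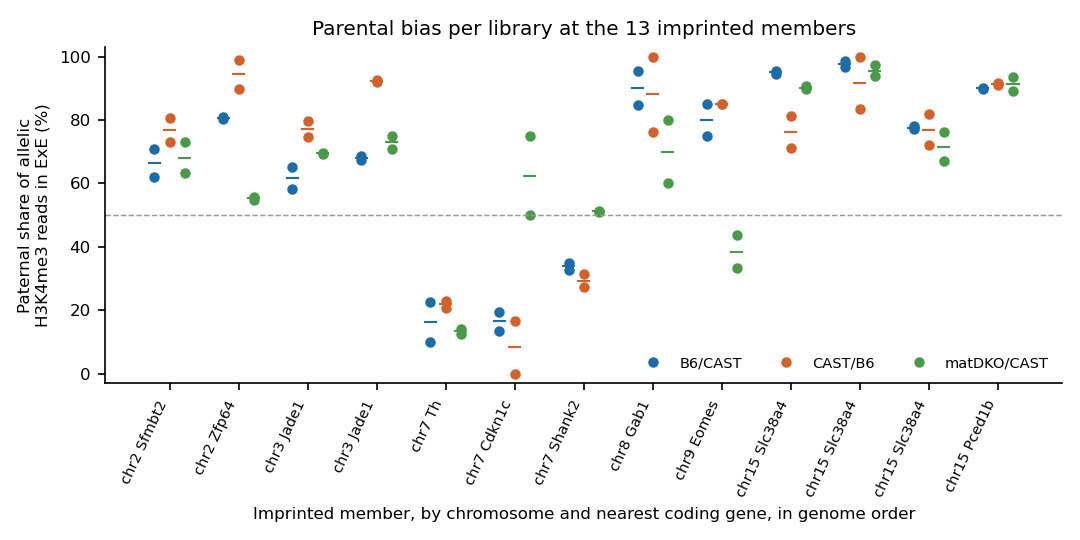
Paternal share of allelic H3K4me3 reads in percent (vertical axis) at the 13 members with a parental bias (horizontal axis, by chromosome and nearest coding gene), with a point for each ExE library of the 3 crosses and a dashed line at equal alleles. The matDKO/CAST points stay near the wild-type ones on chromosome 15, at 91.3% against 90.0 and 91.4% for the Gm32885 member, and lie apart from them near Eomes, at 38.5% against 80.0 and 85.1%.

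Of the other 6 members whose bias differed in matDKO/CAST, 4 had a lower paternal share there than in B6/CAST. At chr15:36937001-36940000, over Gm34590, the reads were 83 maternal and 98 paternal and 47 and 60 in B6/CAST and 30 and 3 and 42 and 1 in matDKO/CAST, while total signal was 10.8 and 7.91 against 9.09 and 11.2 RPKM. The paternal share was thus 55.1% and 5.71%, at a like total. At chr7:97786501-97791500 in Pak1, a kinase gene, it went from 52.2 to 33.7%. The members near Frmd5 and BC048679, named after their values were seen, went from 74.6 to 24.3% and from 75.5 to 31.6%. In the opposite direction, chr7:18402001-18405000 near Psg28, of the pregnancy-specific glycoproteins, went from 32.9 to 81.2%, and chr15:96209501-96220000 near Arid2 from 55.3 to 76.8%. The Psg28 and Arid2 members also had a strain bias in the wild type. The mothers of matDKO/CAST carried 129 alleles as well as B6 ones, so a strain difference at these members cannot be told apart from the loss of Dnmt3a and Dnmt3b in the oocyte. Alleles were also counted otherwise in matDKO/CAST, without the variants that 129 shares with CAST and with reads added to the maternal allele. The part of this in these shifts was not tested.

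Total H3K4me3 in ExE was lower in matDKO/CAST than in B6/CAST at 34 members (0.340%) and higher at 2, against 0.225% and 0.0148% of all peaks. With both wild-type crosses as the control the excess of lower members was gone, with 33 lower and 36 higher. The lower share was 0.120% without B6/CAST ExE replicate 1, 0.170% without replicate 2 and 1.04% without matDKO/CAST ExE replicate 2. Of the 34 members, 10 were on chromosome 12 between positions 15377001 and 23636000, a span with 61 members, and 9 of the 10 were also called lower in the epiblast, where 0.109% of all peaks were lower. The span begins 11.5 Mb beyond the end of Dnmt3a on the same chromosome. The member at chr12:18609001-18612500, over a pseudogene, had 6.66 and 5.97 RPKM in B6/CAST ExE and 6.19 and 6.38 RPKM in CAST/B6 ExE, and 0 in both matDKO/CAST ExE libraries and both matDKO/CAST epiblast libraries. Its input was 0.128 and 0.156 RPKM in the wild-type ExE crosses and 0 in matDKO/CAST. Those at chr12:21897001-21900500 and chr12:19702501-19705500 went from 7.36 and 6.23 to 0.0569 and 0.0297 RPKM and from 3.89 and 3.11 to 0 and 0.0297 RPKM.

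The inputs moved with the signal on chromosome 12. Over the 10 members mean input in ExE was 0.0225 RPKM in matDKO/CAST, 0.132 RPKM in B6/CAST and 0.103 RPKM in CAST/B6, and in the epiblast 0.0245, 0.132 and 0.122 RPKM. Input was lower in matDKO/CAST than in B6/CAST in both tissues at all 10, whereas this was so at 12 of the other 24 and at 21.0% of all members. The 10 members had 10 allelic reads in the 4 wild-type libraries together, so no allele can be read there. At the other 24, 792 of the wild-type allelic reads came from B6 and 332 from CAST (70.5% B6), and matDKO/CAST had 68 maternal and 37 paternal reads. At least 50% of the sequence was repeat at 18 of the 34, compared with 1537 of all 10003 members.

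Away from chromosome 12, the Cdkn1c member above was among the 34, as was one at chr7:142948001-142951000, 16873 bp from Th and 17717 bp from Ascl2, a trophoblast transcription factor expressed from the maternal allele. This one was picked after its values were seen. It had 1.32 and 0.920 RPKM in B6/CAST ExE, 0.521 and 0.449 RPKM in CAST/B6 ExE and 0.177 and 0.198 RPKM in matDKO/CAST ExE (log2 -1.23 ± 0.28, adjusted p = 0.033). The 2 members higher in matDKO/CAST were at chr12:18135001-18137500, over a pseudogene, with 2.75 and 1.54 against 5.34 and 7.36 RPKM and an ExE input that was also higher (0.130 against 0.329 RPKM), and at chr13:114202001-114204000, with 0.947 and 0.690 against 2.73 and 2.25 RPKM. The latter had a CAST bias in the wild type, and its paternal share in matDKO/CAST was 91.5%.

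**Figure D5:**
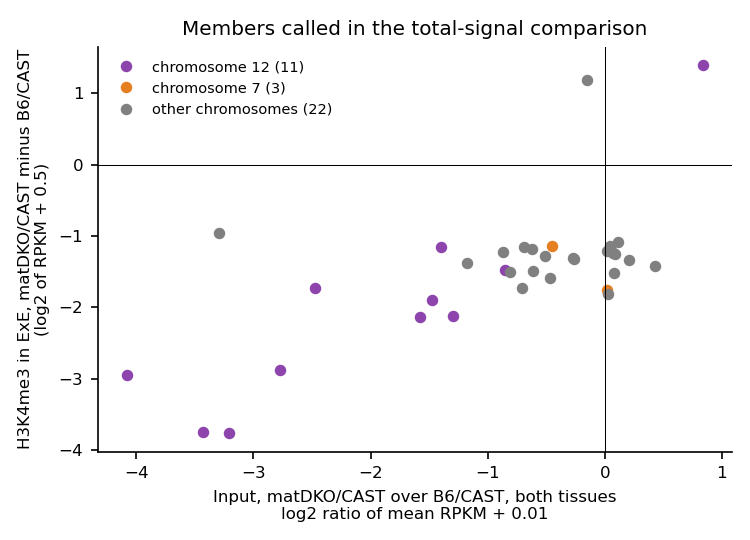
Difference of H3K4me3 in ExE, matDKO/CAST minus B6/CAST on the log2 scale (vertical axis), against the log2 ratio of input between the same crosses over both tissues (horizontal axis), with a point for each of the 34 members called lower and the 2 called higher, coloured by chromosome. The points farthest down are members of chromosome 12 with input ratios far below 0, while other members of chromosome 12 lie among the remaining ones, and 1 member of another chromosome has as low an input ratio with a smaller difference in H3K4me3.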

How the data were processed

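Ultra low-input native ChIP-seq for H3K4me3, H3K27me3 and H3K36me3 was analysed in E6.5 epiblast and ExE of the wild-type reciprocal hybrids and matDKO/CAST, with 36 ChIP libraries in 18 groups and 15 inputs. According to the methods, the authors trimmed reads with Trim Galore (0.4.4 in the submitters' processing notes), aligned them with Bowtie2 2.3.2 to GRCm38 with B6 and CAST variants masked, and split them by allele with SNPsplit. For matDKO/CAST, variants that 129 shares with CAST were left out and reads assigned to 129 in a further alignment were added to the maternal count. The authors called peaks per wild-type cross and tissue with a hidden Markov model and merged them. The deposited allelic tables hold raw read counts per peak and parent. The deposited RPKM file covers 1000 bp windows of the 19 autosomes and was made from all aligned reads. The score column of the deposited peak lists is 0 everywhere and was not used. All coordinates are GRCm38, from the start and end columns.

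A member was an autosomal ExE H3K4me3 peak whose feature orientation was given as not found. The members and lists were chosen with earlier results of these data known. Total signal of a peak was the mean RPKM of its windows, tested as log2(RPKM + 0.5) with limma 3.58.1 (R 4.3.3) on group means of the 12 libraries of a mark, with Benjamini-Hochberg adjustment over 40468 peaks and no filter on low values. Fold changes on this scale understate those of weak peaks. All RPKM values in these libraries were whole multiples of 1 read (tolerance 0.02), so edgeR on the recovered reads was an alternative. Allelic counts were tested two-sided with edgeR 4.0.16 (quasi-likelihood, TMM) over informative peaks, with an added count of 0.5 for single ratios. Differences are ExE minus epiblast or matDKO/CAST minus B6/CAST. The limma test of the wild-type tissue difference and the edgeR test of the alleles in B6/CAST were checked on simulated data. The other fits were not. Nothing says that the 2 libraries of a group came from separate litters, so p-values and SDs measure the spread between these libraries.

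Members were named by rule: up to 12 imprinted ones with the most allelic reads, 3 with the strongest strain bias per strain, 6 per direction with the greatest tissue difference called in both genotypes, the 5 strongest and 5 longest, the 3 most changed per direction and up to 6 with an interaction in matDKO/CAST, and the nearest to fixed marker genes. A region with wild-type ExE input over 3 times the median was kept out of most of these rules, which no member was. Alternatives covered TMM scaling, pseudocounts, a 1 RPKM filter, an adjusted p of 0.01, DESeq2 1.42.0, single crosses, input subtraction, blocks and leaving out each library. Tables were read with data.table (version 1.17.8), Python 3.11.15, numpy 2.4.6 and pandas 2.3.3, and figures drawn with matplotlib 3.10.9. The sequences of some named members are not reported here.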

Additional observations from a re-analysis of the deposited data

Results flagged for a closer look

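At 8 members the parental bias in ExE of matDKO/CAST departed from that of B6/CAST, as tested by the interaction of cross and parent in edgeR (log2 paternal over maternal, matDKO/CAST minus B6/CAST). The values were -1.682 ± 0.246 at chr2:169004501-169010000 (adjusted p = 0.00065), -4.374 ± 0.648 at the Gm34590 member of chromosome 15 (0.00073), 3.239 ± 0.516 near Psg28 (0.0015), 1.444 ± 0.232 near Arid2 (0.0016), -2.508 ± 0.498 near Eomes (0.012), -1.065 ± 0.216 in Pak1 (0.014), -2.897 ± 0.616 near BC048679 (0.022) and -3.115 ± 0.692 near Frmd5 (0.031). Those near BC048679 and Frmd5 rested on 77 and 29 allelic reads in matDKO/CAST. Near Frmd5 the B6/CAST libraries averaged a paternal share of 74.6% and the CAST/B6 ones 37.9%. Near BC048679 it was 75.5 and 60.0%, the latter from libraries with 5 allelic reads each at 40.0 and 80.0%.

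At chr13:82335001-82337000 the tissue difference of total H3K4me3 was the opposite in matDKO/CAST, with a difference between the genotypes of -2.346 ± 0.405 on the log2 scale (limma, adjusted p = 0.028). The call was lost with TMM scaling and with a pseudocount of 0.1. The member had 1.41 and 0.966 RPKM in B6/CAST ExE and 0.140 and 0.409 RPKM in the epiblast, but 0.380 and 0.237 RPKM in matDKO/CAST ExE and 1.25 and 1.50 RPKM in the epiblast. CAST/B6 had 0.875 and 0.547 RPKM in ExE and 0 and 0.336 RPKM in the epiblast. The region was 98.9% repeat and lay 543024 bp from the nearest protein-coding start site.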

How the results depend on the processing

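Shares are of all 10003 members, except that 3020 had at least 1 RPKM, 3746 were listed in both crosses and 6030 had no vM21 gene within 10000 bp. With 1 RPKM as a minimum, the wild-type tissue shares were 18.9% higher and 37.0% lower, against 10.8% and 25.7% of all 20669 such peaks. The matDKO/CAST ones were 8.18 and 35.6% (all such peaks 5.15 and 22.2%), and the cross 27.1% (18.7%). The matDKO/CAST total was 0.132% higher and 0.695% lower (0.0629% and 0.387%), and the tissue by genotype share 0.166%. Input subtraction gave 24.6% higher, CAST/B6 alone 10.6% higher and 7.70% lower, and peaks listed in both crosses 20.2% lower, 0.561% lower in matDKO/CAST and 0.0267% for tissue by genotype. TMM gave 0.0300% for the cross, 0.200% lower in matDKO/CAST and 0 for tissue by genotype, and edgeR on recovered reads 16.5% for the cross. A pseudocount of 0.1 gave 3.8% for the cross, 0 higher in matDKO/CAST, 0.110% for H3K36me3 and 0 for tissue by genotype, and 1 gave 0.0400% and 0.0300% for matDKO/CAST higher and tissue by genotype. Members with no vM21 gene gave 0.0166% for the latter, and both wild-type crosses as the control 0.360% higher in matDKO/CAST. The cause of these shifts was not tested.

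DESeq2 gave 6 imprinted, 41 strain-biased, 19 joint parent, 472 joint strain, 63 matDKO/CAST and 5 interaction calls. An adjusted p of 0.01 gave 116 strain-biased, 23 joint parent, 56 matDKO/CAST and 4 interaction calls. With 20 reads required in each cross, 148 members were strain-biased and 468 had a joint strain effect, and with no filter 1441 had a joint strain effect and 305 a matDKO/CAST bias. One fit over all 3 crosses gave 364 matDKO/CAST and 13 interaction calls, and a library block 614, 32 and 59 joint parent calls.

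Leaving out 1 library at a time gave 4 to 14 imprinted, 26 to 263 strain-biased, 15 to 38 joint parent, 328 to 975 joint strain, 146 to 308 matDKO/CAST, 2 to 5 retained and 4 to 9 interaction calls. The shares ran from 27.8 to 47.1% (wild-type tissue, higher), 10.5 to 13.2% (lower), 6.39 to 19.9% and 10.0 to 14.2% (matDKO/CAST tissue), 0 to 17.7% (cross), 0 to 0.0700% and 0.120 to 1.04% (matDKO/CAST total, higher and lower), 3.24 to 9.65% and 2.71 to 7.70% (H3K27me3), 0.020 to 0.810% (H3K36me3) and 0 to 0.280% (tissue by genotype). A group left with 1 library was assumed to vary like the others. The allelic counts without 1 library come from 1 fit over the 3 crosses. They are to be read against that fit with every library, given above for matDKO/CAST and the interaction. They are not to be read against the separate fits.

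The replicate number was tried as a block over the 3 pairs of tissues that share one: 56.1% of members were higher and 14.6% lower with the block, and 54.2 and 13.3% in the same 6 libraries without it. No such pairing was possible for matDKO/CAST against B6/CAST, which share 1 number.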

Other observations

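At the member nearest to Sox11, chr12:27309001-27313500, the 4 wild-type ExE libraries held 181 allelic reads and the 2 matDKO/CAST ones held 1, although total H3K4me3 was 1.35, 0.939, 0.813 and 1.14 RPKM in the wild type and 1.11 and 0.807 RPKM in matDKO/CAST. The Gm34590 member on chromosome 15 was alike in that its total signal held while the paternal reads of the matDKO/CAST libraries came to 3 and 1, against 98 and 60 in B6/CAST.

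In the epiblast, the region over the imprinted member of chromosome 2, chr2:169004501-169009500, had paternal H3K4me3 shares of 88.0% in B6/CAST, 65.1% in the reciprocal cross and 68.7% in matDKO/CAST. The CAST/B6 value rests on 15 maternal and 28 paternal reads.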
